A study of Mus musculus with 2 samples.

Results

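The 10 small leucine-rich proteoglycan genes described here are Dcn, Lum, Fmod, Bgn, Ogn, Kera, Aspn, Prelp, Podn and Omd, chosen by symbol among the 33696 genes listed, with no use of measured values. They were followed across marker-gated cell classes and stromal states of mouse tibialis anterior (TA) muscle and between 1 library labelled KO and 1 library labelled WT. The series is about the growth factor IGF-I of resident mesenchymal progenitors, also called fibro-adipogenic progenitors (FAPs). The labels give the genotypes only as KO and WT, and do not give the allele, the Cre driver, the strain or the age. Each library pooled 10 TA muscles from 5 male mice of its strain, digested for 1 h at 37 °C with collagenase II and dispase II. Viable cells were sorted by propidium iodide alone, so the suspension held many cell types although the labels call it FAPs. The muscle is marked ND, which the labels do not spell out.

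Small leucine-rich proteoglycans are secreted proteins whose curved leucine-rich repeats bind collagen fibrils and growth factors. By bound glycosaminoglycan chains and by their cores they set the spacing and width of fibrils in tendon, cornea, skin and the connective tissue sheaths of muscle. The family is divided into canonical class I (Dcn, Bgn and Aspn), canonical class II (Lum, Fmod, Kera, Prelp and Omd), class III (Ogn) and a later class that holds Podn. In muscle and tendon, decorin is a widely used marker of fibroblasts and fibromodulin a marker of tendon cells.

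Several members lie next to each other in the mouse genome (GRCm38, GENCODE M21). Dcn, Lum and Kera are adjacent protein-coding genes on the plus strand of chromosome 10, followed by the family gene Epyc, within chr10:97479609-97682454 (202.8 kb). Aspn, Omd and Ogn are adjacent on the plus strand of chromosome 13, after the family gene Ecm2, within chr13:49504810-49624501 (119.7 kb). Prelp, on the minus strand, and Fmod, on the plus strand, are adjacent on chromosome 1, after Optc. Bgn lies on chromosome X and Podn on chromosome 4. Some adjacent members had different patterns across cells in the data below. Kera was found with Fmod and not with its neighbour Lum. Aspn was highest in pericyte-like cells, Omd in perineurial-like cells of the nerve sheath and Ogn in tenocyte-like cells.

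The 250 bases before the start of 4 members are printed here, because these genes carry the main patterns. They are the 3 neighbours Ogn, Omd and Aspn, each highest in another class, and the tenocyte gene Fmod. Capitals mark matches on either strand to TATAAA and to the E-box CANNTG, the motif read by basic helix-loop-helix factors. The windows are chr13:49607765-49608014 for Ogn, chr13:49582212-49582461 for Omd, chr13:49544193-49544442 for Aspn and chr1:134037004-134037253 for Fmod, each on the plus strand. Sequences are from RefSeq (GRCm38.p6), whose promoter table held 8 of the 10 members.
Ogn: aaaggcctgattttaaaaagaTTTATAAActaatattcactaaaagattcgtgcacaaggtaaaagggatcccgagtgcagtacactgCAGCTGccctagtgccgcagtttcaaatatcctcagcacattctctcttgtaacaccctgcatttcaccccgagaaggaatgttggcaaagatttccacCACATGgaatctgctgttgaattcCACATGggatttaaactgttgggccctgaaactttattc
Omd: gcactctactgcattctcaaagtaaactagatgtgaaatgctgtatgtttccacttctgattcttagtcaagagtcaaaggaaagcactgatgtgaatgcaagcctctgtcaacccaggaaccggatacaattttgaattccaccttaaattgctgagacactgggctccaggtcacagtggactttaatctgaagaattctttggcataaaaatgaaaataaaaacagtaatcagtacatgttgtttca
Aspn: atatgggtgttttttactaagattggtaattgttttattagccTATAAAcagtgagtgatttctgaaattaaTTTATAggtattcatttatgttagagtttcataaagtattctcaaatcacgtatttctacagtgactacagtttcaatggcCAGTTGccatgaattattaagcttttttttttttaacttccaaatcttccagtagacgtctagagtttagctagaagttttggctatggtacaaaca
Fmod: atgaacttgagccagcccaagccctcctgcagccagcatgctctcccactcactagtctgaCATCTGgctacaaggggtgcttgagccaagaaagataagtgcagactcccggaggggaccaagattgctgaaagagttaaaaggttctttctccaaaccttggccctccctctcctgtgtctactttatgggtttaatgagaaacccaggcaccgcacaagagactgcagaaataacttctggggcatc
Of the members in that table, Ogn and Aspn had a TATAAA match, which 12.4% of 32851 windows of the same length hold; the 2 matches of Ogn overlap on opposite strands. An E-box match was found in the windows of Ogn, Aspn and Fmod and not in that of Omd, against 66.2% of all windows. The CArG box, a motif of smooth muscle promoters, was in none of the members' windows and in 1.47% of all windows. These matches describe letters in a window and say nothing of binding.

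The library labelled KO held 19531 barcodes and the library labelled WT 11360, of which 17978 and 10151 were kept, with medians of 4212 and 2934 UMIs (unique molecular identifiers, each standing for 1 captured transcript). The libraries had 61 barcodes in common, which is 0.312% of the KO barcodes and 0.537% of the WT barcodes. Cells were put in a class by markers that include no member, and classes are called X-like. FAP-like cells numbered 806 (4.48% of kept barcodes) in KO and 1308 (12.9%) in WT, with medians of 11681.5 and 5673 UMIs. Tenocyte-like cells, the fibroblasts of tendon, numbered 364 in KO and 571 in WT. Their own markers were present in both libraries. In FAP-like cells Pdgfra was at 402 CPM in KO and 755 CPM in WT. Each FAP marker was lower in KO, but Smoc2 by little, at 3442 CPM in KO and 3465 CPM in WT. In tenocyte-like cells Tnmd was at 1288 CPM in KO and 2348 CPM in WT. Thbs4 was higher in KO, at 15840 CPM against 14180 CPM in WT, and the other tenocyte markers were lower. Summed, the tenocyte markers were at 18370 CPM in KO and 18380 CPM in WT, mostly from Thbs4. CPM are counts per 1e6 UMIs of the cells summed. Igf1, which encodes IGF-I, had 434 CPM in KO FAP-like cells (421 to 447) and 383 CPM in WT (369 to 397). It was thus not lower there and does not check the KO label, which is used here only as a library's name; a 3' tag can lie outside a deleted part. In tenocyte-like cells it was at 83.9 CPM in KO and 242 CPM in WT. A cluster of 2874 barcodes with a median of 1349 UMIs held KO barcodes and no WT barcode, and 550 of its cells passed a class gate. Values given below that it moved by over 1.5 times are printed with and without it.

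With 1 library per genotype there was no test between genotypes. The intervals are exact Poisson for levels, exact binomial for ratios and Clopper-Pearson for shares, all at 95%, and they cover counting error only. Differences between mice, preparations and libraries cannot be told apart from a difference of genotype. Levels were not compared between genes.

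Dcn, which encodes decorin, the binder of collagen and of transforming growth factor beta, was a gene of 3 classes. It was at 16630 CPM in KO FAP-like cells and 18520 CPM in WT, at 13830 CPM in KO tenocyte-like cells and 19740 CPM in WT, and at 10750 CPM in KO perineurial-like cells and 11120 CPM in WT. Perineurial cells form the sheath of nerve bundles, and 79 were found in KO and 83 in WT. The FAP gate markers, summed, were at 1847 CPM in KO and 2195 CPM in WT in these cells. In FAP-like cells they were at 6084 CPM in KO and 7723 CPM in WT. The part of mixed cells in the perineurial-like levels was not tested. T-cell-like cells, which should lack the gene, held Dcn at 20.5 CPM in KO (12.5 to 31.6) and 20.4 CPM in WT (9.34 to 38.8), and levels of this order are read as free RNA. Satellite-like cells, the stem cells of muscle, were near that level, with 21.7 CPM in KO and 28.7 CPM in WT. Of the Dcn UMIs in gated cells, FAP-like cells held 73.6% in KO and 71.4% in WT, and tenocyte-like cells 21.8% in KO and 26.5% in WT. In B-cell-like cells of KO, 92.2% of the 141 Dcn UMIs lay in 1 cell, and 62.1% of the 29 in WT, so the 333 CPM in KO and 94.7 CPM in WT are not levels of that class. Likewise 48.1% of the Dcn UMIs of WT myofibre-like cells lay in 1 cell.

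Bgn, which encodes biglycan, the closest relative of decorin, was more widely spread. FAP-like cells had 525 CPM in KO (511 to 540) and 506 CPM in WT (490 to 522), and tenocyte-like cells had 524 CPM in KO (500 to 549) and 726 CPM in WT (694 to 759). In perineurial-like cells it was at 230 CPM in KO and 310 CPM in WT, and in glial-like cells, the Schwann cells of nerve, at 192 CPM in KO and 223 CPM in WT. Smooth-muscle-like cells had 112 CPM in KO and 106 CPM in WT, and endothelial-like cells 70.0 CPM in KO and 117 CPM in WT. T-cell-like cells had 1 Bgn UMI in KO and none in WT, for which 0 counts allow up to 6.81 CPM.

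Aspn encodes asporin, a member that carries no glycosaminoglycan chain and binds collagen. It was highest in the mural cells of vessels. Pericyte-like cells, which wrap capillaries, had 1248 CPM in KO (1222 to 1274) and 1667 CPM in WT (1614 to 1721). Smooth-muscle-like cells had 884 CPM in KO and 1055 CPM in WT, and tenocyte-like cells 839 CPM in KO and 897 CPM in WT. FAP-like cells followed with 241 CPM in KO and 325 CPM in WT. In both libraries the order of these 4 classes was the same, but smooth-muscle-like and tenocyte-like cells of KO lay close, with intervals of 859 to 908 CPM and 809 to 870 CPM that overlap. Of the gated Aspn UMIs, pericyte-like cells held 45.9% in KO and 32.4% in WT, and smooth-muscle-like cells 25.4% in KO and 23.9% in WT.

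Fmod and Kera marked tenocyte-like cells. Fmod encodes fibromodulin, which regulates collagen fibril growth and cross-linking in tendon, and it was at 4815 CPM in KO tenocyte-like cells and 6567 CPM in WT. In FAP-like cells it was at 9.86 CPM in KO and 11.7 CPM in WT, and 1 cell held 30.8% of the WT UMIs. Smooth-muscle-like cells had 36.4 CPM in KO (31.6 to 41.7) and 41.2 CPM in WT (33.8 to 49.7), while T-cell-like cells had 4 UMIs in KO and 3 in WT, or 4.09 CPM in KO and 6.81 CPM in WT. Kera encodes keratocan, a keratan sulphate proteoglycan best known from the corneal stroma. It was at 683 CPM in KO tenocyte-like cells (656 to 712) and 1511 CPM in WT (1465 to 1557), and at 1.47 CPM in KO FAP-like cells and 1.28 CPM in WT. Tenocyte-like cells held 94.1% of gated Kera UMIs in KO and 99.2% in WT, and 95.3% of gated Fmod UMIs in KO and 98.1% in WT.

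Lum, which encodes lumican, was the class II member of FAP-like cells, with 1421 CPM in KO (1397 to 1445) and 1454 CPM in WT (1428 to 1481). FAP-like cells held 94.8% of gated Lum UMIs in KO and 96.1% in WT. Tenocyte-like cells had 83.9 CPM in KO and 132 CPM in WT, and perineurial-like cells 142 CPM in KO and 68.8 CPM in WT. Podn, which encodes podocan, had the same main class, with 147 CPM in KO FAP-like cells and 191 CPM in WT, and 5.01 CPM in KO tenocyte-like cells and 10.3 CPM in WT.

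Prelp encodes a protein with a basic, heparin-binding end that ties basement membranes to connective tissue. It was at 644 CPM in KO tenocyte-like cells and 949 CPM in WT, at 164 CPM in KO FAP-like cells and 281 CPM in WT, and at 146 CPM in KO perineurial-like cells and 151 CPM in WT. Satellite-like cells had 125 CPM in KO (116 to 136) and 174 CPM in WT (156 to 192). Omd encodes osteomodulin, a keratan sulphate proteoglycan of bone. It was highest in perineurial-like cells, at 306 CPM in KO (258 to 360) and 427 CPM in WT (355 to 509), and next in tenocyte-like cells, at 116 CPM in KO and 146 CPM in WT. FAP-like cells had 19.7 CPM in KO (17 to 22.8) and 45.2 CPM in WT (40.6 to 50.1), and pericyte-like cells 18.5 CPM in KO (15.5 to 21.9) and 20.5 CPM in WT (15 to 27.3), so these neighbours in the order did not differ beyond counting error in KO.

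Ogn encodes osteoglycin, also called mimecan, a class III member described in muscle, bone and vessel wall. It was at 2273 CPM in KO tenocyte-like cells and 4011 CPM in WT, at 1077 CPM in KO perineurial-like cells and 1996 CPM in WT, and at 822 CPM in KO FAP-like cells and 1819 CPM in WT. Perineurial-like and FAP-like cells of WT were close, with intervals of 1836 to 2165 CPM and 1789 to 1849 CPM. Satellite-like cells had 210 CPM in KO (197 to 223) and 422 CPM in WT (395 to 451), glial-like cells 66.4 CPM in KO and 285 CPM in WT, and smooth-muscle-like cells 104 CPM in KO and 136 CPM in WT. T-cell-like cells held 2 Ogn UMIs in each library.

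**Figure D1:**
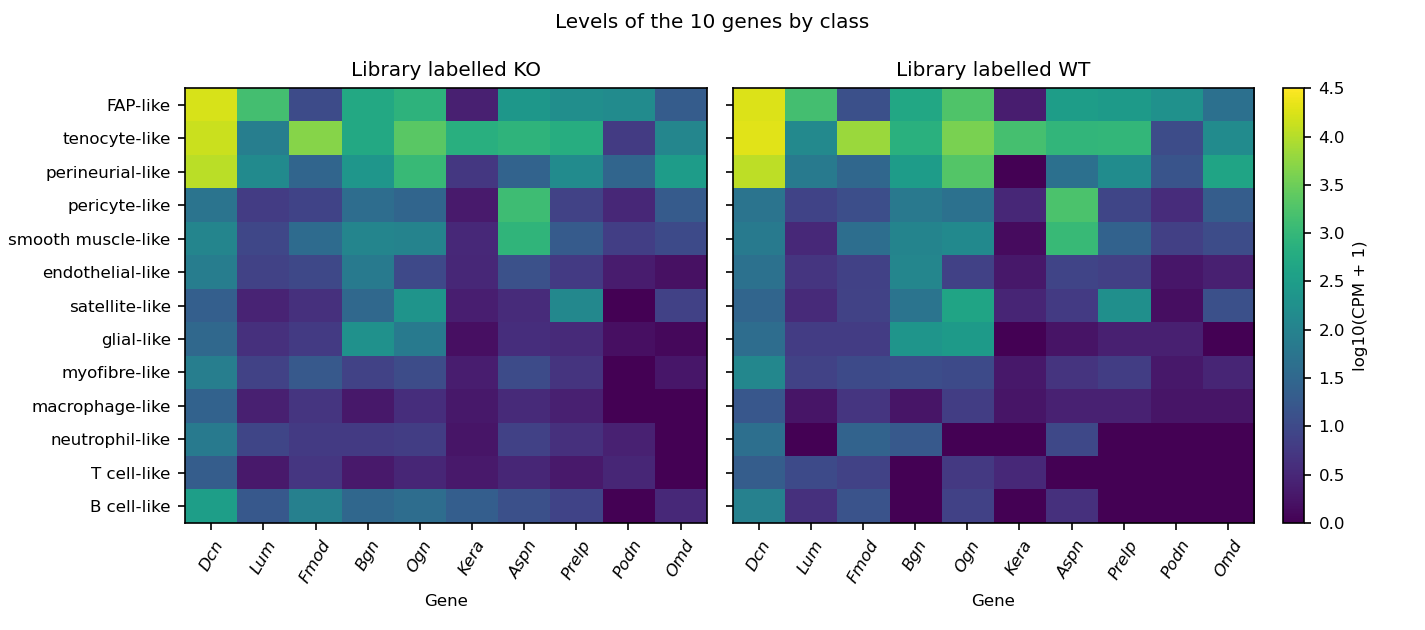
Levels of the 10 genes (columns) in 13 marker-gated classes (rows), as log10(CPM + 1), in the library labelled KO (left) and the library labelled WT (right). Dcn is bright in FAP-like, tenocyte-like and perineurial-like cells, Fmod and Kera in tenocyte-like cells, and Aspn also in pericyte-like and smooth-muscle-like cells; perineurial-like, neutrophil-like and B-cell-like cells have under 100 cells in a library.

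The members' proportions differed between classes, whereas free RNA of 1 source keeps its genes in 1 ratio in every class of a library. Empty droplets were not analysed here, so the ratios over all kept barcodes, most of whose Dcn lies in FAP-like and tenocyte-like cells, stand beside those of each class. Over all kept barcodes there were 8.62 Aspn UMIs per 100 Dcn UMIs in KO and 5.57 in WT, 8.66 Ogn UMIs in KO and 13.6 in WT, 2.24 Prelp UMIs in KO and 2.67 in WT, and 5.01 Bgn UMIs in KO and 3.89 in WT. Pericyte-like cells had 2336 Aspn UMIs per 100 Dcn UMIs in KO (3156 without the cluster that held no WT barcode) and 3204 in WT. Satellite-like cells had 967 Ogn UMIs and 577 Prelp UMIs per 100 Dcn UMIs in KO, and 1473 and 605 in WT. Glial-like cells had 585 Bgn UMIs per 100 Dcn UMIs in KO and 575 in WT. Endothelial-like cells had 86.7 Bgn UMIs per 100 Dcn UMIs in KO and 249 in WT, and without that cluster 159 in KO. They had 10.7 Ogn UMIs in KO and 13.9 in WT, and 8.14 Lum UMIs in KO and 8.35 in WT, near the 6.29 in KO and 5.80 in WT of all kept barcodes for Lum. Relative to Dcn, Bgn in endothelial-like and glial-like cells and Ogn and Prelp in satellite-like cells were thus far above their ratios over all kept barcodes, and Lum and Ogn in endothelial-like cells were close to theirs. The part of free RNA in these ratios was not tested. The cluster that held no WT barcode had 9.09 Ogn and 10.6 Aspn UMIs per 100 Dcn UMIs, against 8.66 and 8.62 over all kept KO barcodes. Its ratios for Lum and Kera lay further off, with 9.5 Lum UMIs against 6.29 and 2.14 Kera UMIs against 1.33.

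Within the stroma, FAP-like cells and ungated cells with a Pdgfra UMI were put in states by markers that include no member. The states are called by their markers. The Dpp4/Pi16 state held 110 cells in KO and 290 in WT, the Cxcl14/G0s2/Mme state 300 in KO and 733 in WT, the Prg4/Comp/Cilp/Gdf10 state 28 in KO and 86 in WT, the Angptl7/Tenm2 state 35 in KO and 39 in WT and the Sbspon/Coch/Lef1 state 82 in KO and 56 in WT. The F2rl1/Thbs1 state held 194 cells in KO and 16 in WT, and a Dlk1 state held 16 in KO and none in WT. A further 283 cells in KO and 227 in WT had no state. The states differ in cell number between libraries, so a level over all FAP-like cells also follows the mix of states.

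Dcn and Lum had the same top state. The Angptl7/Tenm2 state held Dcn at 30640 CPM in KO (30110 to 31190) and 37820 CPM in WT (37080 to 38580), and Lum at 2572 CPM in KO (2418 to 2733) and 3492 CPM in WT (3269 to 3726). The Cxcl14/G0s2/Mme state had Dcn at 19340 CPM in KO and 21290 CPM in WT, and Lum at 1872 CPM in KO and 1960 CPM in WT. The Dpp4/Pi16 state was low in both, with Dcn at 10570 CPM in KO and 10680 CPM in WT, and Lum at 367 CPM in KO and 257 CPM in WT. The Sbspon/Coch/Lef1 state had a Dcn level close to it, 10850 CPM in KO and 13180 CPM in WT, but more Lum, 682 CPM in KO and 855 CPM in WT. The Dlk1 state of KO had Dcn at 23890 CPM and Lum at 2319 CPM. In the F2rl1/Thbs1 state Dcn was at 15260 CPM in KO and 30260 CPM in WT, a log2 ratio of -0.99 (-1.05 to -0.93). Lum was at 1268 CPM there in KO and 2124 CPM in WT, a log2 ratio of -0.74 (-0.97 to -0.51). The WT levels of that state rest on 16 cells.

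Aspn had another order of states. It was at 845 CPM in the Dpp4/Pi16 state of KO (800 to 893) and 640 CPM in WT (605 to 677), and at 211 CPM in the Prg4/Comp/Cilp/Gdf10 state of KO (157 to 279) and 783 CPM in WT (704 to 869). The Cxcl14/G0s2/Mme state had 78.5 CPM in KO (68.9 to 89.0) and 155 CPM in WT (144 to 167). In the Angptl7/Tenm2 state 2 Aspn UMIs were found in KO and none in WT, and in the Sbspon/Coch/Lef1 state likewise 2 in KO and none in WT. For WT, 0 counts allow up to 11.5 CPM in the first of these states and 11.3 CPM in the other. Bgn was highest in the Prg4/Comp/Cilp/Gdf10 state, at 820 CPM in KO and 925 CPM in WT, and at 272 CPM in the Dpp4/Pi16 state of KO and 118 CPM in WT. Fmod was at 186 CPM in the Prg4/Comp/Cilp/Gdf10 state of KO (135 to 250) and 196 CPM in WT (158 to 241), and in the F2rl1/Thbs1 state at 16.3 CPM in KO and 224 CPM in WT, a WT level that rests on 18 UMIs in 16 cells. In the other 4 states it was at 16.1 CPM or less in both libraries.

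The Sbspon/Coch/Lef1 state stood out by its low levels of Ogn and Prelp. Ogn was at 45.2 CPM there in KO (31.5 to 62.8) and 256 CPM in WT (199 to 325), against at least 524 CPM in KO and 681 CPM in WT in the other 5 states drawn in the plot of states. Prelp was at 9.03 CPM there in KO and 26.4 CPM in WT, against at least 123 CPM in KO and 209 CPM in WT in those 5 states. Ogn was highest in the Prg4/Comp/Cilp/Gdf10 state, at 1306 CPM in KO (1164 to 1460) and 2544 CPM in WT (2400 to 2694), although in KO the Dpp4/Pi16 state at 1227 CPM (1173 to 1284) did not differ from it beyond counting error. Podn was highest in the Cxcl14/G0s2/Mme state, at 194 CPM in KO (179 to 210) and 254 CPM in WT (239 to 269), and in WT the Angptl7/Tenm2 state was as high at 241 CPM (185 to 308). Omd was lowest in the Sbspon/Coch/Lef1 state, with 2 UMIs in each library. It was highest in the Prg4/Comp/Cilp/Gdf10 state, at 71.85 CPM in KO (41.86 to 115) and 104.7 CPM in WT (77.21 to 138.8). The Dpp4/Pi16 state was at 57.7 CPM in KO (46.37 to 71.05) and 71.3 CPM in WT (59.77 to 84.37). These intervals overlap those of the highest state.

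**Figure D2:**
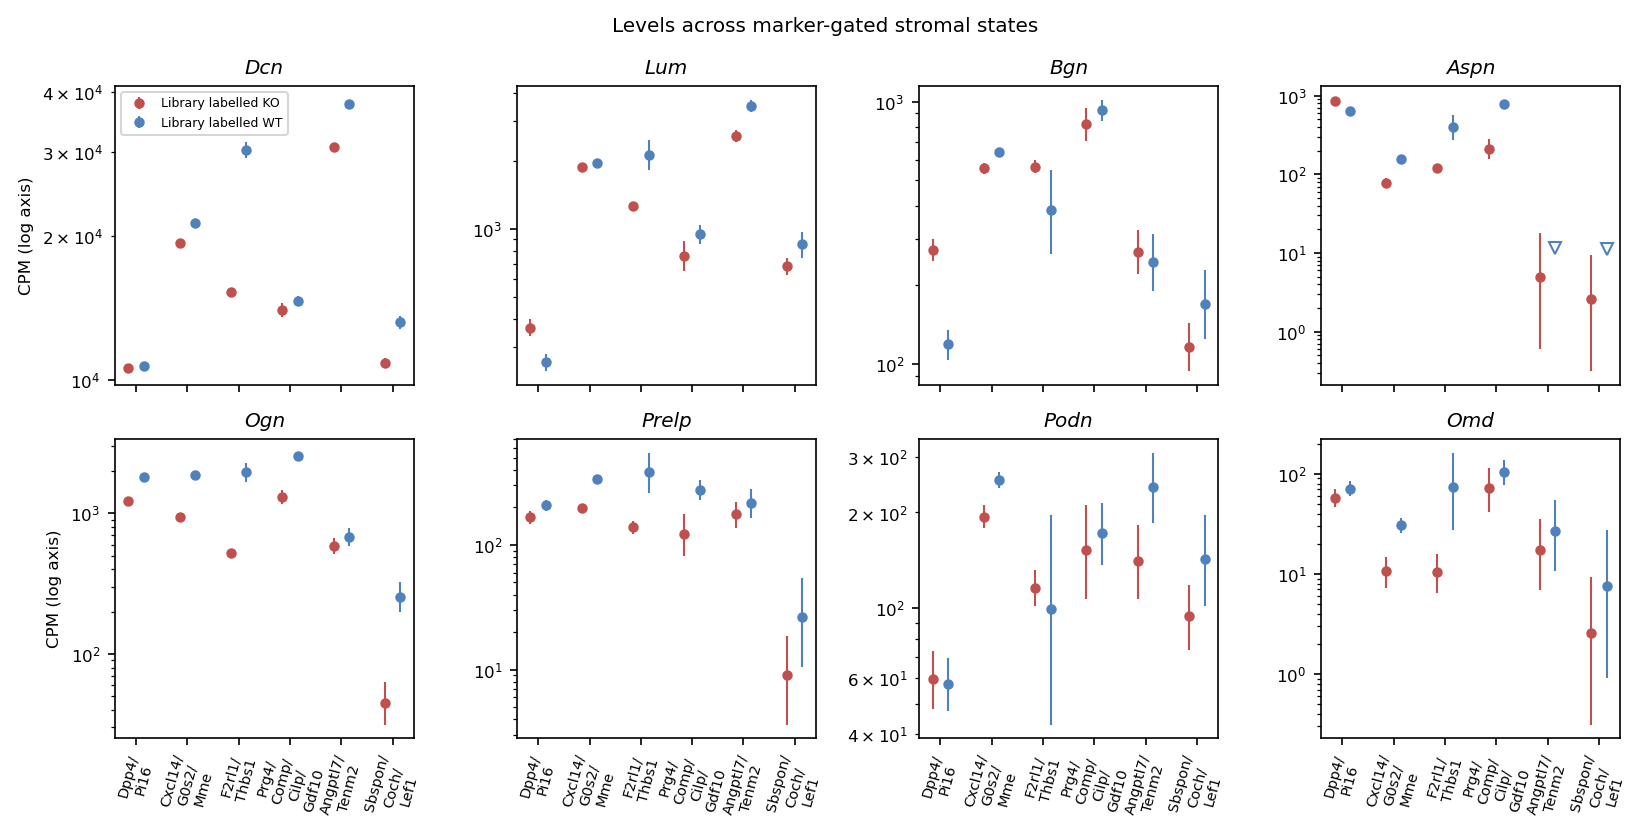
Levels of 8 genes (CPM, log axis) in 6 marker-gated stromal states, in the library labelled KO (red, left) and the library labelled WT (blue, right), with exact Poisson 95% intervals; open triangles mark the limit that a count of 0 allows. Dcn and Lum peak in the Angptl7/Tenm2 state, Aspn in the Dpp4/Pi16 state of KO and the Prg4/Comp/Cilp/Gdf10 state of WT, and Ogn and Prelp are lowest in the Sbspon/Coch/Lef1 state.

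Ogn, Omd and Prelp were at least 1.5-fold lower in KO FAP-like cells than in WT ones, while Dcn, Lum, Bgn, Aspn and Podn lay within 1.5-fold. Ogn had 7834 UMIs in KO and 14183 in WT, a log2 ratio of -1.15 (-1.19 to -1.11). Only 1.42% of the genes past the floors had a lower ratio. Omd had 188 UMIs in KO and 352 in WT, a log2 ratio of -1.16 (-1.46 to -0.94), and Prelp 1560 in KO and 2194 in WT, a log2 ratio of -0.78 (-0.88 to -0.69). Aspn stood at -0.43 (-0.52 to -0.35), Podn at -0.38 (-0.49 to -0.28), Dcn at -0.16 (-0.17 to -0.15), Lum at -0.03 (-0.07 to 0.00), which became 0.05 with TMM scaling and 0.02 with equal weight per state, and Bgn at 0.05 (-0.01 to 0.12). The floors for a ratio were 20 CPM in either library and a sum of 100 UMIs. Of the 8 members past them, 3 were at least 1.5-fold lower in KO and 0 higher, where 12.2% of 7096 genes were lower and 12.1% higher. The median log2 ratio of these members was -0.41 and that of all genes past the floors 0.02. The other 2 members, Fmod and Kera, were under the floors.

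The ratio of Aspn in FAP-like cells depended on which cells entered it. With equal weight for the 2 states that held at least 30 FAP-like cells in each library, and no other cells, the log2 ratio of Aspn was 0.21. With FAP-like cells of any state that held at least 2000 UMIs, each thinned to 2000 UMIs, it was -0.66. That restriction to 2 states with equal weight gave -0.77 for Ogn and -0.63 for Omd, still past 1.5-fold. Within states Aspn was at 0.40 (0.29 to 0.52) in the Dpp4/Pi16 state and -0.97 (-1.20 to -0.77) in the Cxcl14/G0s2/Mme state. Bgn likewise had a log2 ratio of 1.19 (0.96 to 1.44) in the Dpp4/Pi16 state and -0.21 (-0.30 to -0.13) in the Cxcl14/G0s2/Mme state. The difference between states was not tested. Ogn was at -0.56 (-0.64 to -0.48) in the Dpp4/Pi16 state, which lies within 1.5-fold, and at -0.98 (-1.04 to -0.92) in the Cxcl14/G0s2/Mme state. Omd was at -0.30 (-0.71 to 0.09) in the Dpp4/Pi16 state, an interval that includes 0, and at -1.45 (-2.13 to -0.97) in the Cxcl14/G0s2/Mme state. Prelp was at -0.32 (-0.56 to -0.09) in the Dpp4/Pi16 state, within 1.5-fold, and at -0.78 (-0.92 to -0.64) in the Cxcl14/G0s2/Mme state. In the Angptl7/Tenm2 state Ogn was at -0.21 (-0.50 to 0.07), an interval that includes 0, and in the Sbspon/Coch/Lef1 state at -2.48 (-3.14 to -1.90). In clusters made without the family's genes, Ogn was at 828 CPM in KO and 1987 CPM in WT in the FAP-like cells of a cluster led by Cilp and Rnf150, at 1261 CPM in KO and 1900 CPM in WT in one led by Cmah and Car8, and at 556 CPM in KO and 853 CPM in WT in one led by Spp1 and Tenm2. Aspn was at 860 CPM in KO and 650 CPM in WT in the Cmah/Car8 cluster and at 159.9 CPM in KO and 249.9 CPM in WT in the Cilp/Rnf150 cluster. Median depth also differed between the libraries, and its part in the ratios was not tested beyond thinning.

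Among members past the floors in tenocyte-like cells, Kera and Ogn had the lowest ratios. Kera had 2320 UMIs in KO and 4100 in WT, a log2 ratio of -1.14 (-1.22 to -1.07), with 1.29% of genes lower. Ogn was at -0.82 (-0.86 to -0.78) and Lum, at a low level, at -0.65 (-0.89 to -0.43). Prelp was at -0.56 (-0.64 to -0.48), Dcn at -0.51 (-0.53 to -0.50), Bgn at -0.47 (-0.56 to -0.38), Fmod at -0.45 (-0.48 to -0.42) and Omd at -0.33 (-0.54 to -0.13). Aspn was nearly level, at -0.10 (-0.17 to -0.02). Of 9 members past the floors, 3 were at least 1.5-fold lower in KO (Kera, Ogn and Lum) and 0 higher, where 9.42% of 6823 genes were lower and 12.3% higher. The remaining member, Podn, had 17 UMIs in KO and 28 in WT. The median log2 ratio of the 9 was -0.51, against 0.06 over all genes past the floors.

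**Figure D3:**
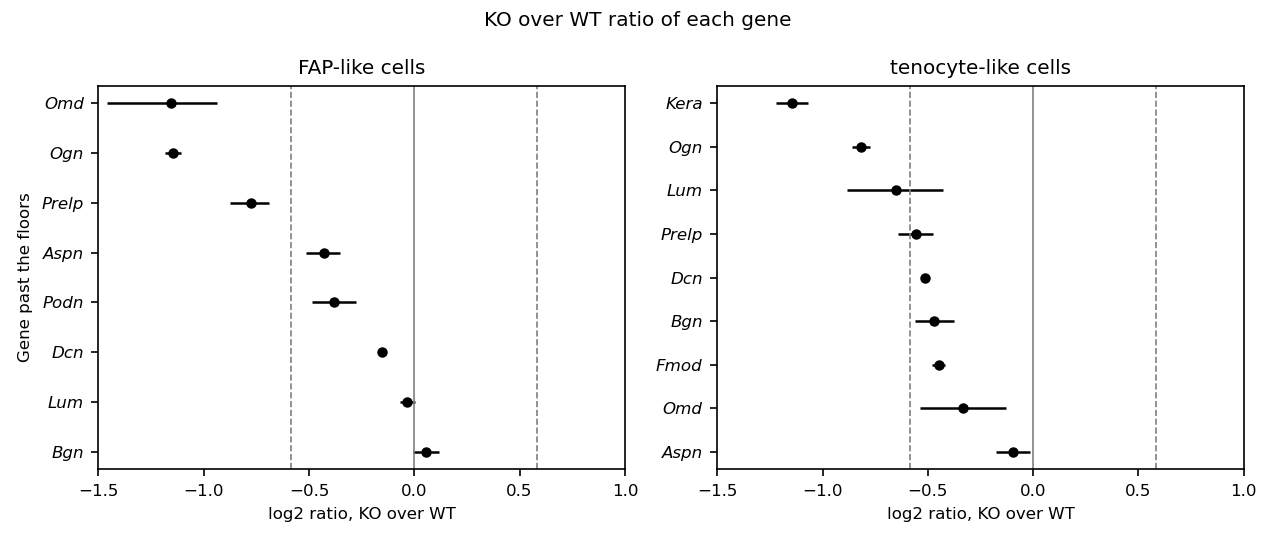
Log2 ratio of KO over WT for each gene past the floors in FAP-like cells (left) and tenocyte-like cells (right), with exact binomial 95% intervals for counting error; dashed lines mark 1.5-fold. Ogn lies below the lower line in both classes, Omd and Prelp in FAP-like cells, and Kera and Lum in tenocyte-like cells.

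The cell-level view was similar at equal depth. With each cell thinned to 2000 UMIs, 61.7% of KO FAP-like cells (58.2 to 65.1) and 80.2% of WT cells (77.8 to 82.3) had an Ogn UMI, while 82.4% in KO and 87.7% in WT had one before thinning. The share with Prelp was 24.9% in KO (21.9 to 28.1) and 39.0% in WT (36.3 to 41.8), against 66.4% in KO and 66.9% in WT before thinning. Lum was found in 71.7% of KO cells and 69% of WT cells after thinning, and Dcn in 97.6% of KO cells and 98.0% of WT cells. Thinning left out 23 FAP-like cells of KO and 69 of WT. In tenocyte-like cells Kera was found in 40.7% of KO cells (35.5 to 46.0) and 64.6% of WT cells (60.3 to 68.7). T-cell-like cells, with medians of 8102 UMIs in KO and 3824 in WT, gave a thinned share for Ogn of 0.855% in KO and 1.98% in WT, and for Dcn of 8.55% in KO and 4.95% in WT.

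Single cells within a class varied widely. Among FAP-like cells with at least 2000 UMIs, Dcn ran from 32.0 at the 10th percentile to 302 at the 90th, per 10000 UMIs, in KO, and over 39.5 to 317 in WT, with medians of 152 in KO and 180 in WT. Ogn had medians of 5.83 per 10000 UMIs in KO and 15.2 in WT. In tenocyte-like cells the median of Kera was 1.38 per 10000 UMIs in KO and 9.42 in WT, and the 90th percentile 18.2 in KO and 36.5 in WT. Median Aspn there was 3.42 per 10000 UMIs in KO and 2.37 in WT, so the KO median was the higher although the summed level was not. Tenocyte-like cells had medians of 8700 UMIs in KO and 4284 in WT, and such a median can depend on depth. Thinned to 2000 UMIs, 47.7% of KO cells (42.4 to 53.1) and 46.0% of WT cells (41.6 to 50.4) had an Aspn UMI.

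**Figure D4:**
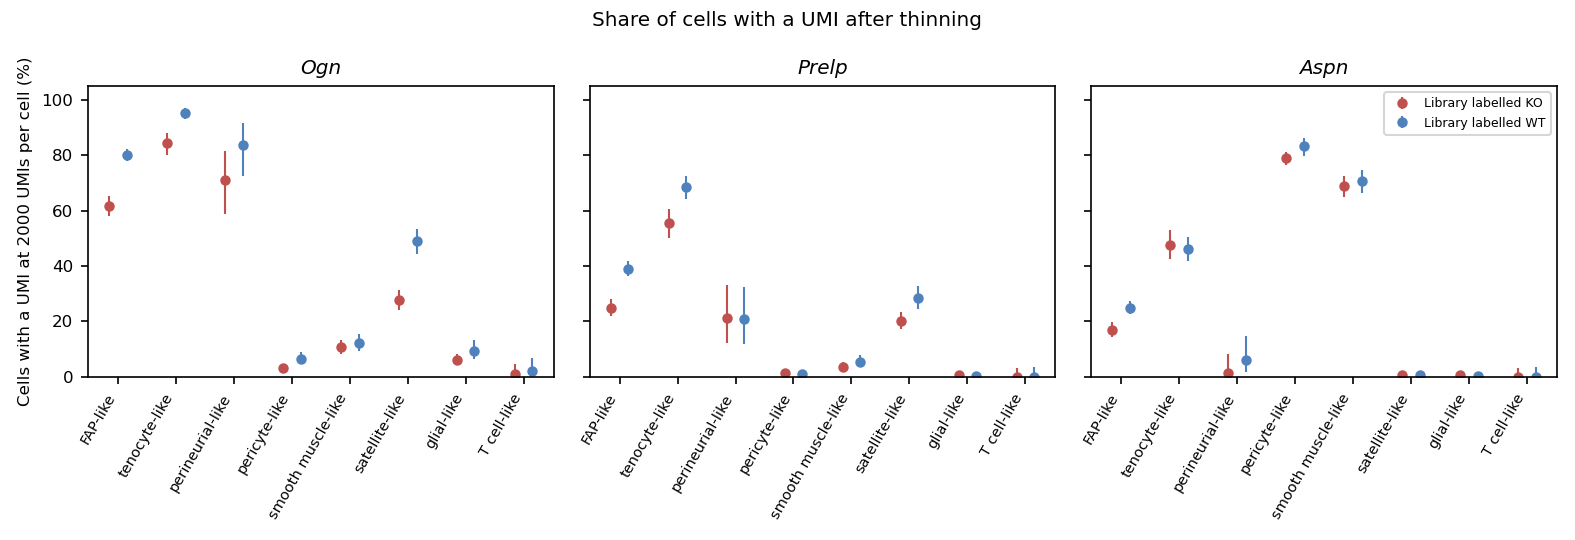
Share of cells with at least 1 UMI of Ogn, Prelp or Aspn (%), each cell thinned to 2000 UMIs, in 8 classes, for the library labelled KO (red, left) and the library labelled WT (blue, right), with Clopper-Pearson 95% intervals. Ogn is found in 61.7% of KO FAP-like cells and 80.2% of WT cells, and in T-cell-like cells, which should lack it, in under 2% of cells.

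Ogn was lower in KO in every class where it passed the floors. Beside FAP-like and tenocyte-like cells, its log2 ratio was -1.0 (-1.14 to -0.88) in satellite-like cells, -2.08 (-2.34 to -1.87) in glial-like cells, -0.74 (-1.10 to -0.41) in pericyte-like cells and -0.39 (-0.59 to -0.20) in smooth-muscle-like cells. The last lies within 1.5-fold. Among genes past the floors, 4.16% were at least 1.5-fold lower in KO and 4.66% higher in glial-like cells, 10.2% lower and 11.5% higher in satellite-like cells, 9.14% lower and 4.34% higher in pericyte-like cells and 3.91% lower and 4.15% higher in smooth-muscle-like cells. Perineurial-like cells, with under 100 cells per library, were at 1077 CPM in KO and 1996 CPM in WT. In satellite-like cells thinned to 2000 UMIs, Ogn was found in 27.7% of KO cells (24.3 to 31.4) and 48.9% of WT cells (44.4 to 53.4).

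Ogn in glial-like cells lay almost wholly in 1 of 3 clusters, the one led by Ncmap, a glial gate marker. That cluster held 72 glial-like cells in KO and 57 in WT, with Ogn at 852 CPM in KO (747 to 967) and 2231 CPM in WT (2005 to 2474), a log2 ratio of -1.39. Another cluster, led by Gfra3 and Frmd5, had 4.28 CPM in KO and 42.4 CPM in WT, and the other one, led by Lyz2 and Csmd3, had 3.22 CPM in KO and 5.75 CPM in WT. In KO 15.9% of the glial Ogn UMIs lay in 1 cell. Bgn was the reverse, at 244 CPM in KO (226 to 263) and 302 CPM in WT (267 to 341) in the cluster led by Lyz2 and Csmd3, and at 10.7 CPM in KO and 12.5 CPM in WT in the Ncmap cluster. Clusters were made without the members.

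Bgn in endothelial-like cells, where its log2 ratio was -0.73 (-0.85 to -0.64), lay mainly in some of the clusters. It was at 179 CPM in KO (170 to 188) and 177 CPM in WT (163 to 193) in a cluster led by Efna5, Bmx and Mgp, and at 230 CPM in KO (216 to 245) and 295 CPM in WT (269 to 323) in a cluster led by Selp and Sele, adhesion molecules of venous endothelium. In the 3 other large clusters it was between 2.70 and 3.83 CPM in KO and between 3.96 and 6.20 CPM in WT. These 2 clusters held 1169 and 490 cells of 7338 in KO, and 904 and 356 of 3174 in WT. Thus in the Efna5/Bmx/Mgp cluster the libraries did not differ beyond counting error, while over the whole class Bgn was lower in KO, where 5.6% of genes past the floors were at least 1.5-fold lower and 2.48% higher. In the 383 endothelial-like cells of the cluster that held no WT barcode Bgn was at 103 CPM (78.3 to 133). A small cluster led by myofibre genes had Bgn at 4.49 CPM in 46 KO cells and 163 CPM in 35 WT cells, from 16 UMIs. Prelp was at 21.4 CPM in the Selp/Sele cluster of KO (17.3 to 26.1) and 27.1 CPM in WT (19.5 to 36.6), and at 2.86 CPM or less in those other large clusters and the Efna5/Bmx/Mgp cluster of both libraries.

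Dcn was at 80.8 CPM in KO and 47.1 CPM in WT in endothelial-like cells, a log2 ratio of 0.77 (0.63 to 0.93), and at 109 CPM in KO and 67.8 CPM in WT in smooth-muscle-like cells, a log2 ratio of 0.68 (0.44 to 0.94). These were the members at least 1.5-fold higher in KO. Both rest on the cluster without WT barcodes, which gave 383 endothelial-like cells of KO at 2519 CPM and 116 smooth-muscle-like cells. Without it Dcn was at 43.7 CPM in KO and 47.1 CPM in WT in endothelial-like cells, and at 36.5 CPM in KO and 67.8 CPM in WT in smooth-muscle-like cells, log2 ratios of -0.10 and -0.87. In WT smooth-muscle-like cells 17.4% of the Dcn UMIs lay in 1 cell.

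Aspn in mural cells was lower in KO in the larger cluster of pericyte-like cells and level in the other. The class ratio was -0.42 (-0.47 to -0.36). In the cluster led by Pid1 and Slc35f1 Aspn was at 1329 CPM in KO (1300 to 1358) and 1933 CPM in WT (1867 to 1999). In the pericyte-like cells of a cluster led by Csmd1 and Tnc it was at 798 CPM in KO (732 to 869) and 797 CPM in WT (712 to 889). Smooth-muscle-like cells had 960 CPM in KO and 1158 CPM in WT in the cluster led by Pln and Pcsk1. Bgn, at 25.1 CPM in KO and 36.1 CPM in WT in the Pid1/Slc35f1 cluster, was at 180 CPM in KO (149 to 215) and 190 CPM in WT (150 to 237) in the Csmd1/Tnc cluster. Over all pericyte-like cells Bgn had a log2 ratio of -0.70 (-1.01 to -0.42), and in satellite-like cells of -0.71 (-1.09 to -0.37). Over the 8 classes other than FAP-like and tenocyte-like cells, 21 values of members passed the floors, of which 6 were at least 1.5-fold lower in KO and 2 higher. Of the 45099 values of all genes past the floors in these classes, 6.47% were lower and 6.70% higher. In myofibre-like cells, where 4.55% of genes were lower and 7.51% higher, Dcn was the 1 member past the floors and lay within 1.5-fold. In macrophage-like cells, with 8.38% lower and 15.3% higher, and T-cell-like cells, with 4.34% lower and 7.61% higher, 0 members passed the floors.

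**Figure D5:**
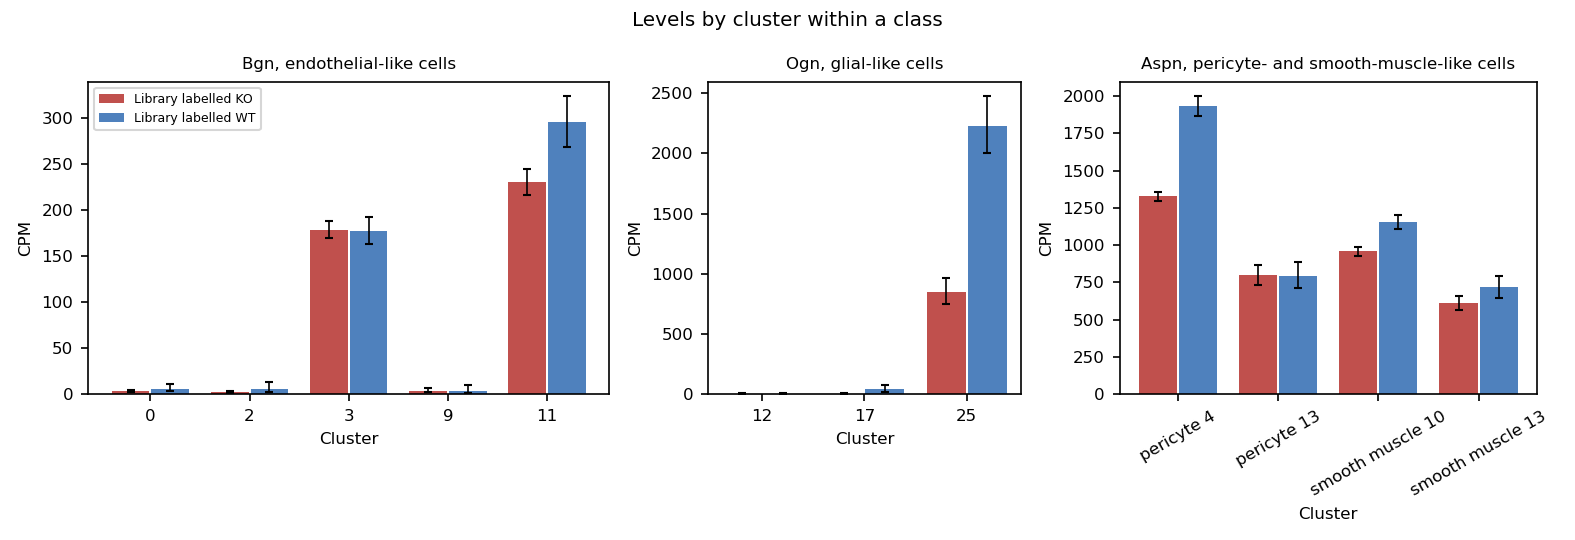
Levels (CPM) of Bgn in 5 clusters of endothelial-like cells, Ogn in 3 clusters of glial-like cells and Aspn in clusters of pericyte-like and smooth-muscle-like cells, in the library labelled KO (red, left) and the library labelled WT (blue, right), with exact Poisson 95% intervals. Bgn is high in clusters 3 (Efna5/Bmx/Mgp) and 11 (Selp/Sele), and Ogn in cluster 25 (Ncmap), at 852 CPM in KO and 2231 CPM in WT.

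Likeness was measured by Pearson's r of log2(CPM + 1) over 20 points, 10 classes in 2 libraries, which share depth and free RNA within a library. Fmod and Kera had the highest r among member pairs, 0.95, followed by the neighbours Dcn and Lum at 0.93, while the neighbours Lum and Kera had 0.41. On chromosome 13, Aspn and Omd had 0.84, Ogn and Omd 0.82, and Ogn and Aspn 0.56. Perineurial-like cells, where Omd was highest, are not among the 10 classes. Among 8083 genes the nearest to Dcn were, in order, Myoc (0.98), Mmp3, Igfbp6, Cilp and Dchs2 (0.95). The nearest to Fmod were Ptx4 (0.99), Cilp2, Shisal2b, Tnmd and Wif1 (0.95), where Cilp2 and Tnmd are tenocyte gate markers. Bgn was nearest to Plpp3 (0.98), Fkbp9, Npdc1, Morc4 and Sparc (0.95), and Prelp to Svep1 (0.96), Tmem45a, Aff2, 4930578G10Rik and Ssc5d (0.93).

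Of the other family genes, Ecm2 and Chad passed the floors in these cells. Ecm2, the neighbour of Aspn, was at 226 CPM in KO FAP-like cells and 372 CPM in WT, a log2 ratio of -0.71, and at 715 CPM in KO tenocyte-like cells and 999 CPM in WT. It was also at 549 CPM in KO pericyte-like cells and 660 CPM in WT. Chad, which encodes chondroadherin of cartilage and tendon, was at 531 CPM in KO tenocyte-like cells and 1043 CPM in WT, a log2 ratio of -0.97.

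Among the collagens, which include those the members bind, Col1a1, Col1a2, Col3a1 and Col5a1 were lower in KO in both classes. All 10 genes of the collagen list passed the floors. Of these, 5 were at least 1.5-fold lower in KO FAP-like cells and 0 higher, where 12.2% of all genes past the floors were lower and 12.1% higher, and the other 5 lay within 1.5-fold. The median log2 ratio of the list was -0.59. Col1a1, a chain of type I collagen, was at 737 CPM in KO and 1460 CPM in WT there, and Col3a1, the chain of type III collagen, at 1718 CPM in KO and 3350 CPM in WT. Col5a1, of the type V collagen that nucleates fibrils, was at 217 CPM in KO and 419 CPM in WT, and Col1a2 at 1353 CPM in KO and 2602 CPM in WT. In tenocyte-like cells 4 of 10 were lower and 0 higher, where 9.42% of all genes were lower and 12.3% higher, with Col1a1 at 2196 CPM in KO and 6773 CPM in WT (log2 ratio -1.62) and Col1a2 at 3005 CPM in KO and 7377 CPM in WT (-1.30). Col3a1 had -0.75 and Col5a1 -0.71 there.

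Enzymes that build chondroitin and dermatan sulphate, the chains of decorin and biglycan, had counts near those of all genes in FAP-like cells. There 13 of 22 passed the floors, 2 were at least 1.5-fold higher in KO and 1 lower, with a median log2 ratio of 0.27. Over all genes 12.1% were higher and 12.2% lower. The higher ones were the sulphotransferase Chst11, at 37.2 CPM in KO and 19.5 CPM in WT, and Csgalnact1, which starts the chondroitin chain, at 288 CPM in KO and 185 CPM in WT. The lower one was the sulphotransferase Chst12, at 12.6 CPM in KO and 33.5 CPM in WT. Chsy1, a chondroitin synthase, was at 29.6 CPM in KO and 22.1 CPM in WT. In tenocyte-like cells 0 of 13 passed 1.5-fold in either direction, and the log2 ratios furthest from 0 were -0.58 for Chst12, 0.51 for Chsy1, 0.45 for Chpf and 0.39 for Fam20b. Of 7 keratan sulphate enzymes 2 passed the floors, B3gnt2 and B4galt1, and neither passed 1.5-fold in FAP-like or tenocyte-like cells.

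Of the proteases that cut the members or procollagen, 8 of 9 passed the floors in FAP-like cells, 3 lower and 1 higher in KO, where 12.2% of all genes were lower and 12.1% higher. Adamts5, an aggrecanase, was at 455 CPM in KO and 800 CPM in WT, Bmp1, the procollagen C-proteinase that also trims biglycan, at 121 CPM in KO and 186 CPM in WT, and Mmp2, a gelatinase, at 376 CPM in KO and 569 CPM in WT. Mmp3, stromelysin, was at 49.0 CPM in KO and 30.8 CPM in WT. In tenocyte-like cells Adamts4, an aggrecanase, and Pcolce, the enhancer of Bmp1, were the 2 lower of 7 past the floors, with Pcolce at 523 CPM in KO and 801 CPM in WT, and 0 were higher, where 9.42% of all genes were lower and 12.3% higher. Bmp1 had a log2 ratio of -0.58 there and Mmp3 of -0.25.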

How the data were processed

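The deposited files hold raw UMI counts per gene and barcode, which the authors made with Cell Ranger 9.0.0 and build mm10 per the submitters' processing notes; version 9.0.0 stands in the KO file header and 8.0.0 in the WT file header. Of the gene IDs, 1735 are not in GENCODE M21; those of the members are. Libraries were 10x GEM-X 3' version 4.

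Barcodes were kept with at least 500 genes, at most 10% mitochondrial UMIs and no Scrublet doublet call (scanpy 1.11.5; 576 calls, 3.10%, in KO and 121, 1.18%, in WT, so doublets remain). A cell took the class with most distinct markers, at least 3 and at least 2 times any other class; pericyte and smooth muscle lists did not compete, and myofibre needed 5% of UMIs in its markers. Cells with exactly 3 markers were 62 and 51 (FAP-like and tenocyte-like) in KO and 91 and 84 in WT. In KO 2614 ungated cells, and in WT 531, had 3 or more markers of 1 class but fell short of 2 times the next class. Of the kept barcodes, 74.8% were gated to a class in KO and 84.4% in WT. A state took at least 2 of its markers and more than any other state, except that the Angptl7/Tenm2 and Sbspon/Coch/Lef1 lists took precedence. The Dlk1 state took cells without another state that held at least 2 Dlk1 UMIs, a cutoff that depth can affect. The scoring of states was chosen after the data were seen. Leiden clusters were made without the family's genes. Counts were summed per class and library, ratios used a pseudocount of 1 CPM, and classes needed 100 cells per library to be compared. Ratio intervals come from counts without the pseudocount.

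No test was run between genotypes, since cells of 1 library are not replicates. Members, lists and markers were chosen with earlier results of these data known. Named genes are the members, the 4 genes of each list furthest from a ratio of 1 (fewer where fewer passed) and the 5 genes most like Dcn, Bgn, Fmod and Prelp. The ratio code was tested on simulated data. Alternatives to the filters, gate, depth, scaling (TMM, edgeR 4.0.16), floors and pseudocount were tried.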

Additional observations from a re-analysis of the deposited data

How the results depend on the processing

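No paired analysis was possible because there is 1 library per genotype. In FAP-like and tenocyte-like cells the counts of members at least 1.5-fold apart stayed within 1.5 times under each alternative, 15 for FAP-like ratios and 12 for tenocyte-like ratios. The log2 ratio of Ogn ran from -1.18 to -0.77 in FAP-like cells and from -0.90 to -0.79 in tenocyte-like cells, that of Kera in tenocyte-like cells from -1.22 to -1.13, that of Prelp in FAP-like cells from -0.85 to -0.60 and that of Omd there from -1.22 to -0.63. Aspn in FAP-like cells ran from -0.66, with cells thinned, to 0.21, with equal weight for 2 states and no other cells. Lum there ran from -0.14 to 0.05. Over the other 8 classes the 2 higher values became 1 with a floor of 100 CPM, 16 with no floor and 0 without the cluster that held no WT barcode, an alternative added after the data were seen. The 6 lower values became 11 with classes from clusters, 3 with a floor of 100 CPM and 23 with no floor; the cause was not tested. TMM factors moved all ratios up by 0.09 in FAP-like cells and 0.11 in pericyte-like cells. At these depths a T-cell-like level of 20 CPM for Dcn limits what can be read as expression in other classes.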
